A study of Mus musculus with 16 samples.

Results

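The mitochondrial ribosomal protein genes were described across 16 arrays of mouse cerebellum and hippocampus. Members were all genes whose single symbol in the array's annotation begins with Mrpl or Mrps and a digit. The rule found 76 of the 18168 genes measured, 47 named for the large subunit (Mrpl) and 29 for the small subunit (Mrps), and all 76 had values. They rested on 156 probe sets, sets of short oligonucleotides that each report on a transcript. Another 4 probe sets carried several symbols and were left out, so Mrpl30 and Mrpl53 are not described.

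Mitochondrial ribosomes translate the few proteins that mitochondrial DNA encodes, all of them core subunits of the respiratory chain and the ATP synthase. Their RNA comes from mitochondrial DNA, whereas every protein of the ribosome is encoded in the nucleus, made in the cytosol and imported. Some of these proteins have counterparts in bacterial ribosomes and others occur in mitochondria alone. In humans, mutations in several of them cause combined deficiencies of the respiratory chain.

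The study compared mice that overexpress a mutant form of Twinkle, the helicase that unwinds mitochondrial DNA during replication, with wild-type mice. The series title calls them deletor mice, and they stand for progressive external ophthalmoplegia, an eye muscle disease in which deletions collect in mitochondrial DNA. Each genotype was represented by 4 arrays per region. The mutants were 24, 24, 21 and 21 months old in the order of replicates 1 to 4 in both regions. The wild types were 26, 24, 21 and 23 months old in the same order. Wild types were thus as old as the mutants of the same number or older, so genotype was partly confounded with age in months. The labels give neither the promoter of the transgene nor the strain, and they do not say whether both regions came from the same animals. P-values therefore measure the spread between these samples.

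The deposited values are logarithms, read as log2, of which 0 marks the median array of the same region. A value thus says how far an array lies from that median for a gene, and no expression level is left. Levels of different genes, or of a gene in the cerebellum and in the hippocampus, could not be compared, and the labelled tissue could not be checked against absolute marker levels. Within the hippocampus, several arrays stood apart. The mean of 9 cerebellar granule neuron genes reached 2.41 on wild-type replicate 1 and 0.86 on mutant replicate 1, against -0.25 to 0.25 on the other 6 arrays. The mean of 10 choroid plexus genes was 2.00 on mutant replicate 4 and 0.89 on wild-type replicate 1. In the cerebellum, choroid plexus genes stood at -1.40 on mutant replicate 4. The poly-A control probe sets, which detect RNA spiked in before labelling, averaged 0.55 and 0.59 on cerebellum mutant replicates 2 and 4 and at most 0.05 on the other 6 cerebellum arrays. Twnk, the gene for Twinkle, had 1 probe set. In the cerebellum it stood at -0.01, -0.15, 0.01 and 0.00 on wild-type replicates 1 to 4 and at -0.00, 0.01, 0.11 and -0.01 on mutant replicates 1 to 4. In the hippocampus the wild types had -0.09, -0.11, -0.06 and 0.05 and the mutants 0.03, -0.01, 0.01 and 0.02. The genotypes overlapped in both regions, with a difference of 0.06 (SE 0.05) in each region (limma adjusted p = 0.91 in the cerebellum and 0.77 in the hippocampus). Whether that probe set detects the transgene is not known here.

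Nuclear respiratory factors, ETS factors and YY1 are known regulators of nuclear genes for mitochondrial proteins, so the promoters of the members were searched for their motifs. RefSeq (GRCm38.p6) gave a promoter, the 250 bases before and 50 bases after the start of the gene, for 67 of the 76 members. The 3 motifs searched on both strands were GCGCATGC, bound by nuclear respiratory factor 1 (NRF1), CCGGAAG, bound by ETS factors such as GABP, and AAGATGGCG, bound by YY1. At least 1 of them was present in 35 of 67 members (52.2%), against 17.6% of 17492 protein-coding genes. The ETS motif was in 25 members (37.3%, against 12.9%), the NRF1 motif in 8 (11.9%, against 3.94%) and the YY1 motif in 8 (11.9%, against 2.14%). The median share of G and C was 58% in the members and 56.3% in all promoters. A match describes the letters in the window and does not show that a factor binds there.

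A start site of another protein-coding gene lay within 1000 bases upstream on the opposite strand for 23 of the 67 members (34.3%), against 8.48% of protein-coding genes. For Mrpl43 that neighbour was Twnk itself, the gene whose mutant form the mice overexpress, and the start sites were 116 bases apart. Mrpl46 and Mrps11, a member of each subunit, had start sites 42 bases apart. Psma2, which encodes a proteasome subunit, started 205 bases from Mrpl32. The stretches below end 1 base before the start of the named gene and run 5′ to 3′ on its strand. They show what Mrpl43 shares with Twnk, what lies between Mrpl46 and Mrps11, and the upstream bases of Mrpl32 and Mrpl17, which had some of the smallest p-values in the cerebellum and hippocampus. Capitals mark the ETS motif in Mrpl43 and the NRF1 motif, on either strand and partly overlapping, in Mrpl32 and Mrpl17. Mrpl46 had no match between the start sites.
Mrpl43, chr19:45006443-45006557, minus strand: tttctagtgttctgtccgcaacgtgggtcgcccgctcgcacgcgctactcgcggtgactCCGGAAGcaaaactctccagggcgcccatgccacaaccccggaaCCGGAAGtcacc
Mrpl46, chr7:78783090-78783130, minus strand: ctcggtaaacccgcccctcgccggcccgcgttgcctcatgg
Mrpl32, chr13:14613038-14613237, minus strand: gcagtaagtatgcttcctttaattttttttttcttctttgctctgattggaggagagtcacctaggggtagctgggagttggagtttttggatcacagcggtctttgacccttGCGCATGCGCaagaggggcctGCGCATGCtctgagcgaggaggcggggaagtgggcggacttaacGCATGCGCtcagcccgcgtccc
Mrpl17, chr7:105811088-105811287, minus strand: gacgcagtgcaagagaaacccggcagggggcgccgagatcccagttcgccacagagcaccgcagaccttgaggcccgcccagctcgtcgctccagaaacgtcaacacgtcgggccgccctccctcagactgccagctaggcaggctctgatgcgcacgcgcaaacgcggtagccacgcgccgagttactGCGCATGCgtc

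In the cerebellum, the comparison asked whether expression of these genes differed between mutant and wild-type mice. Most members lay slightly higher in mutants. The difference, mutant minus wild type, was above 0 for 70 of 76 members, against 53.6% of all genes, with a median of 0.08 against 0.01 for all genes, and it ranged from -0.05 to 0.24. None of the 76 members passed an adjusted p of 0.05 in limma, a linear model fitted to all 18168 genes, where 0% of all genes passed and the smallest adjusted p was 0.884. At an unadjusted p under 0.05, 8 members were higher and 0 lower, against 3.15% and 2.24% of all genes. In bulk tissue, more RNA per cell and more cells of a type rich in it cannot be told apart.

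Mrps35, a small-subunit protein with no bacterial counterpart, had the smallest p of the members. It stood at -0.00, -0.27, -0.13 and -0.06 on wild-type replicates 1 to 4 and at 0.00, 0.21, 0.01 and 0.27 on mutant replicates 1 to 4. Mutants 2 and 4 were high, mutants 1 and 3 sat just above the highest wild type, and the groups did not overlap. The difference was 0.24 (SE 0.07, limma adjusted p = 0.88). Without mutants 2 and 4, the arrays with raised poly-A controls, it was 0.13, and without wild-type replicate 2 as well it was 0.08.

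Mrpl32, a large-subunit protein that the m-AAA protease cuts before it joins the ribosome, came next. Its wild-type values were 0.01, -0.12, -0.09 and -0.10 and its mutant values 0.11, 0.17, -0.01 and 0.13, in replicate order. Wild-type replicate 1 and mutant replicate 3 overlapped, and the other arrays lay apart. The difference was 0.17 (SE 0.06, limma adjusted p = 0.88), and 0.13 without mutants 2 and 4. Mrpl36, counterpart of the bacterial protein L36, had -0.08, -0.21, -0.00 and -0.15 in wild types and 0.00, 0.25, 0.01 and 0.06 in mutants. The groups did not overlap, but mutants 1 and 3 lay close to wild-type replicate 3. Its difference was 0.19 (SE 0.08, limma adjusted p = 0.88), and 0.11 without mutants 2 and 4.

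Mrps18c is 1 of several relatives of bacterial S18. It stood at 0.07, -0.15, -0.09 and -0.16 in wild types and at 0.08, 0.20, -0.07 and 0.18 in mutants. Mutants 2 and 4 again lay highest, while mutant replicate 3 fell among the wild types. The difference was 0.18 (SE 0.08, limma adjusted p = 0.88), and 0.09 without mutants 2 and 4. The other members with an unadjusted p under 0.05 were Mrpl39 at 0.18, Mrps36 at 0.15 and Mrps23 and Mrpl18 at 0.12 each, all with a limma adjusted p of 0.88. Mrps36 keeps its ribosomal name but is now known as a subunit of the 2-oxoglutarate dehydrogenase complex.

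Mutants lay wholly above wild types for 5 of 76 members, against 1.44% of all genes, and wholly below for 0, against 1.02%. Besides Mrps35 and Mrpl36 these were Mrpl50, Mrps12 and Mrps31. Mrpl50, a mitochondria-specific protein of the large subunit, had -0.01, -0.03, -0.06 and -0.20 in wild types and 0.01, 0.05, 0.04 and 0.12 in mutants, a difference of 0.13. Mrps12, counterpart of the bacterial decoding protein S12, had -0.01, -0.04, -0.01 and -0.03 in wild types and 0.03, 0.02, 0.02 and 0.01 in mutants. Its groups were narrow and close, with a difference of only 0.04 (SE 0.06). Mrps31 had -0.04, -0.06, -0.02 and -0.01 in wild types and 0.02, 0.10, -0.00 and 0.08 in mutants, a difference of 0.08. The adjusted p of these 3 genes lay between 0.88 and 0.95 in limma.

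The 6 members below 0 were Mrpl37 at -0.05, Mrpl10 at -0.05, Mrpl38 at -0.03, Mrpl21 at -0.02, and Mrpl45 and Mrps2 at -0.01. Mrpl10 anchors the stalk of the large subunit, where translation factors dock. Each of these differences was smaller than its standard error.

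**Figure D1:**
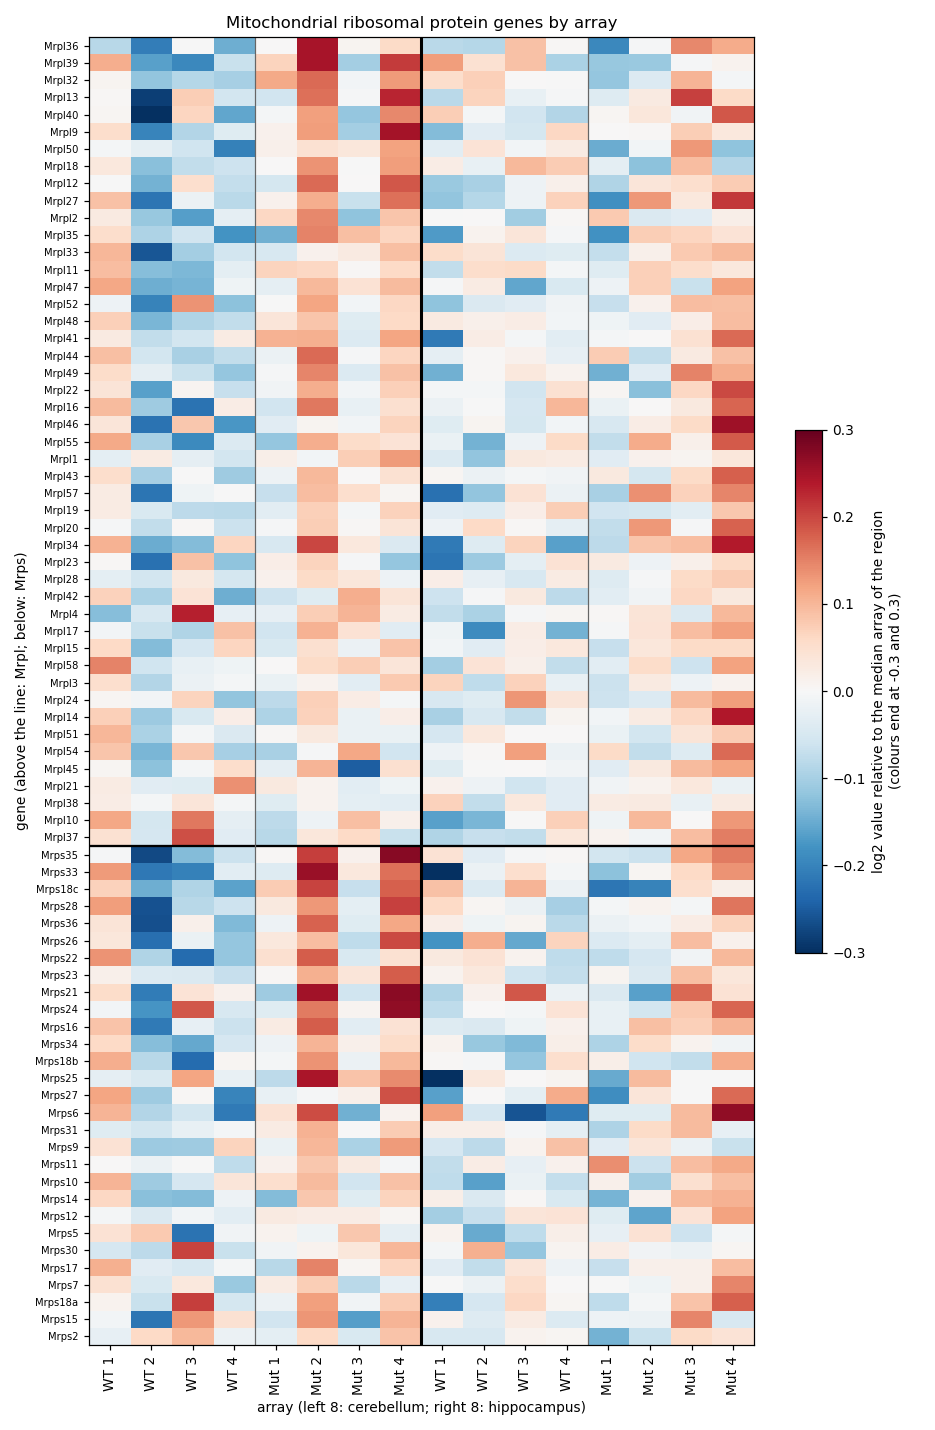
Value of each of the 76 genes (y axis, Mrpl above the line and Mrps below, ordered by the cerebellum difference) on each of the 16 arrays (x axis), as colour on a log2 scale relative to the median array of the region. In the cerebellum the columns of mutant replicates 2 and 4 are mostly red and wild-type replicate 2 mostly blue, and in the hippocampus mutant replicates 3 and 4 are mostly red.

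The members moved as a block from array to array. On mutant replicate 2 of the cerebellum 70 of 76 members were above 0, on mutant replicate 4 it was 63, and on wild-type replicate 1 it was 59. Wild-type replicate 2 had 3 members above 0 and wild-type replicate 4 had 13, while mutants 1 and 3 had 31 and 34 and wild-type replicate 3 had 26. The mean over the members was -0.01, 0.10, -0.01 and 0.08 on mutant replicates 1 to 4 and 0.04, -0.12, -0.02 and -0.05 on wild-type replicates 1 to 4. The group means were 0.04 ± 0.06 for mutants and -0.04 ± 0.07 for wild types (SD, n = 4). The genotypes overlapped, and wild-type replicate 1 lay above mutants 1 and 3.

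Mutant replicates 2 and 4 were also the arrays with raised poly-A controls. Without them the median difference of the members was 0.03 and 57 of 76 were above 0. Without wild-type replicate 2 as well it was 0.00 with 39 of 76 above 0, where the median of all genes was 0.00. Leaving out 1 array at a time gave medians from 0.05, without mutant replicate 2, to 0.11, without wild-type replicate 1. The hybridization controls were low on wild-type replicate 4 (-0.724) and high on wild-type replicate 3 (0.271). The median was 0.07 without the former array and 0.08 without the latter. Microglia genes also lay higher in mutants, with 9 of 9 differences above 0. Their mean ran from -0.11 to 0.32 in mutants and from -0.16 to 0.12 in wild types, and it was 0.32 on mutant replicate 2 but -0.09 on mutant replicate 4. Blood cell genes lay lower, with 3 of 4 measured below 0, means from -0.12 to -0.07 in mutants and 0.04 to 0.35 in wild types. Choroid plexus genes had 9 of 10 below 0, with means from -1.40 to 0.08 in mutants and -0.42 to 0.67 in wild types. Oligodendrocyte genes had 7 of 7 and Purkinje cell genes 6 of 6 below 0, with medians of -0.03 and -0.04. The part of these cell types in the result was not tested.

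**Figure D2:**
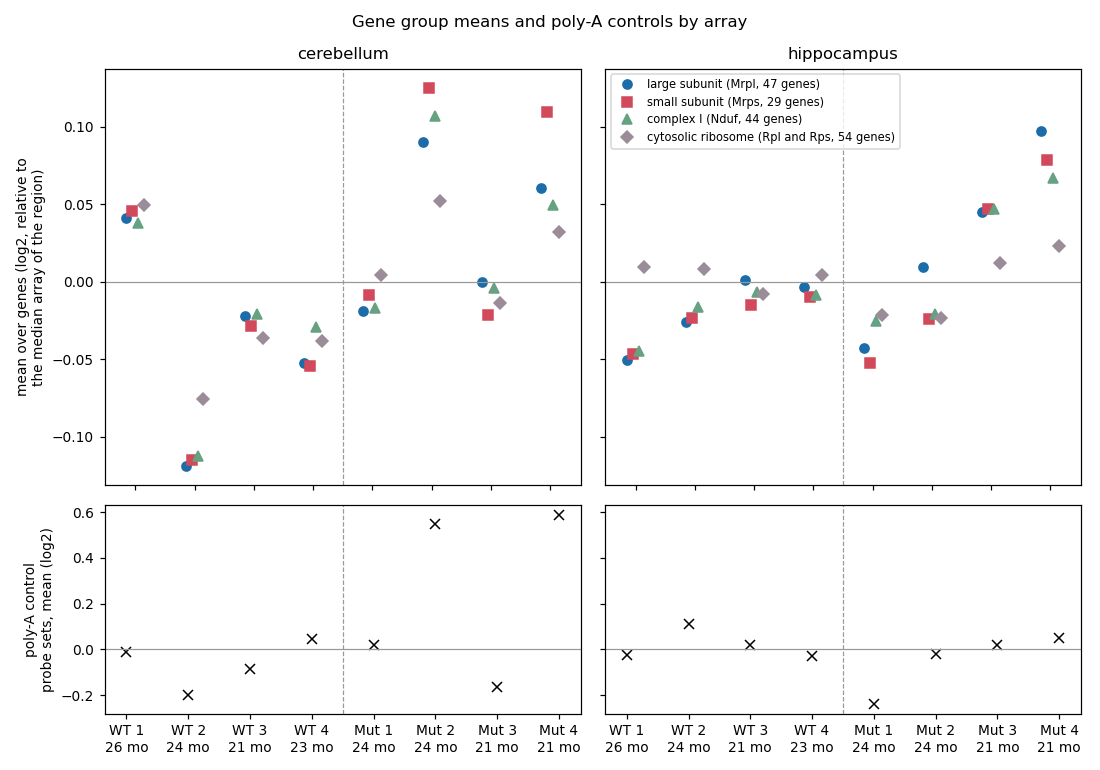
Mean over the genes of each group (upper y axis, log2 relative to the region's median array) and mean of the poly-A control probe sets (lower y axis) on each array (x axis, with genotype, replicate and age in months). In the cerebellum both subunits and the genes named for complex I (Nduf) are highest on mutant replicates 2 and 4, which have the raised poly-A controls. They are lowest there on wild-type replicate 2, while in the hippocampus mutant replicates 3 and 4 are highest.

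Both subunits lay mostly above 0. In the cerebellum 42 of 47 Mrpl genes were above 0 with a median of 0.08, and 28 of 29 Mrps genes with a median of 0.09. By origin, the 10 small-subunit proteins with no bacterial counterpart were all above 0, from 0.08 to 0.24, with a median of 0.11. The 16 small-subunit proteins with a bacterial counterpart had a median of 0.05, with 15 above 0. In the large subunit, with Mrps30 counted in it, the medians were 0.08 for 29 proteins with a bacterial counterpart and 0.07 for 19 without. Mrps18a and Mrps36 were placed in no class. These medians are descriptions, and differences between the classes were not tested.

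Genes of related function give the scale of these values. Of 44 measured genes whose symbol begins with Nduf, 39 were above 0 with a median of 0.07. These are named for complex I, whose nuclear subunits depend on mitochondrial translation for their partners, and the rule can also take in its assembly factors. Of 54 genes whose symbol begins with Rpl or Rps and a digit, 42 were above 0 with a median of 0.06. That rule was meant for cytosolic ribosomal proteins but can also take in genes that encode other proteins. Mitochondrial tRNA synthetases had 13 of 16 above 0 with a median of 0.04, and the smallest p belonged to Rars2 at 0.13 and Lars2 at 0.10. Translation factors had 10 of 12 above 0 with a median of 0.04, and the smallest p belonged to the initiation factor Mtif3 at 0.19 and the formyltransferase Mtfmt at 0.18. Assembly factors had 17 of 22 above 0 with a median of 0.04, among them the pseudouridine synthase Rpusd4 at 0.24 and, on the other side, the rRNA chaperone Eral1 at -0.16. Ribosomal proteins with other names had 4 of 4 above 0, with Chchd1 at 0.11 and Gadd45gip1 at 0.03. The adjusted p of each named gene was at least 0.88 in limma. The Nduf genes followed the members array by array, with the same order from mutant replicate 2 at the top to wild-type replicate 2 at the bottom.

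In the hippocampus the members lay higher in mutants by a smaller margin. The difference was above 0 for 65 of 76 members, against 58.9% of all genes, with a median of 0.04 against 0.02 for all genes. None of the 76 passed, where 0% of all genes did (smallest adjusted p 0.0571). At an unadjusted p under 0.05, 2 members were higher and 0 lower, against 5.28% and 2.75% of all genes. Mutants and wild types lay apart for 0 of 76 members in either direction, against 3.24% of all genes higher and 1.52% lower. The large subunit had 41 of 47 above 0 and the small subunit 24 of 29, both with a median of 0.04. Their means on mutant replicate 2 differed in sign, at 0.01 for the large and -0.02 for the small subunit.

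Mrpl17, counterpart of bacterial L17, had the smallest p. Its wild types stood at -0.01, -0.19, 0.02 and -0.14 and its mutants at -0.00, 0.04, 0.09 and 0.12. Mutant replicate 1 lay just below wild-type replicate 3, and the other mutants were above every wild type. The difference was 0.14 (SE 0.06, limma adjusted p = 0.58). Its 3 probe sets gave 0.29 (SE 0.12), 0.13 (SE 0.09) and 0.01 (SE 0.08), so they spread widely and the last lay close to 0. In the cerebellum they lay on both sides of 0, from -0.05 to 0.09.

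Mrpl14, which lies at the contact between the subunits, had -0.10, -0.05, -0.07 and 0.01 in wild types and -0.01, 0.02, 0.06 and 0.24 in mutants. Mutant replicate 4 was far above the rest. The difference was 0.13 (SE 0.06, limma adjusted p = 0.60), and 0.08 without that array. Mrpl34 lay at 0.17, Mrpl57 at 0.14 and Mrpl37 at 0.11 (limma adjusted p from 0.61 to 0.64).

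Of the 11 members below 0, Mrps18c lay lowest at -0.12 (SE 0.08), with 0.09, -0.04, 0.10 and -0.02 in wild types and -0.22, -0.20, 0.05 and 0.02 in mutants. The older mutants, replicates 1 and 2, were low and the younger mutants lay among the wild types. Among older animals alone its difference was -0.23 and among younger ones -0.01. Mrpl39 lay at -0.09, Mrpl18 at -0.08, Mrpl32 at -0.05 and Mrpl50 at -0.04, and all of these 5 genes had been above 0 in the cerebellum. The limma adjusted p was 0.70 for Mrps18c and 0.73 for Mrpl18.

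In the hippocampus the members were highest on mutant replicates 3 and 4. There 57 and 66 of 76 members were above 0, against 16 and 39 on mutants 1 and 2 and 24, 29, 38 and 38 on wild-type replicates 1 to 4. The mean over the members was -0.05, -0.00, 0.05 and 0.09 on mutants and -0.05, -0.02, -0.00 and -0.01 on wild types. Mutant 1 lay within the wild-type range and mutant 2 level with its upper end. Without mutant replicate 4 the median difference was 0.02 and without mutant replicate 1 it was 0.06. With quantile normalization it was 0.02, and the median of all genes was then 0.00. Without the arrays with raised cerebellar neuron genes, mutant and wild-type replicates 1, it was 0.05 with 65 of 76 above 0. Leaving out mutant replicate 4 as well gave 0.04 with 57 above 0. Mutant replicates 3 and 4 also had the highest ependymal marker means, 0.65 and 0.64, and 7 of 7 of those markers had a difference above 0, with a range of -0.04 to 0.65 in mutants and -0.38 to -0.02 in wild types. Meningeal genes had 8 of 8 above 0, highest on mutant replicate 1, with means from -0.04 to 1.03 in mutants and -0.31 to -0.04 in wild types. Oligodendrocyte genes had 7 of 7 above 0, highest on mutants 4 and 3, with means from -0.19 to 0.15 in mutants and -0.32 to 0.09 in wild types. Choroid plexus genes had 9 of 10 above 0, while Purkinje cell genes had 6 of 6 and cerebellar granule neuron genes 8 of 9 below 0. General neuron genes had 6 of 8 and dentate granule neuron genes 5 of 7 below 0, with medians of -0.08 and -0.23. Blood cell genes had 3 of 4 below 0, with means from -0.30 to -0.06 in mutants, all below the wild types at 0.06 to 0.67. Their part in the result was not tested.

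Genes of related function were measured in the hippocampus too. The Nduf genes had 34 of 44 above 0 with a median of 0.04, while the Rpl and Rps genes had 24 of 54 above 0 with a median of -0.01. Synthetases had 10 of 16 above 0 with a median of 0.02, with Wars2 at 0.13 and Ears2 at 0.12. Translation factors had 10 of 12 above 0 with a median of 0.03, with the ribosome recycling factor Mrrf at 0.20 and the release factor Mtrf1l at -0.22. Assembly factors had 15 of 22 above 0 with a median of 0.02, with Mrm3 at 0.10 and Mpv17l2 at 0.09. Ribosomal proteins with other names had 3 of 4 above 0, with Dap3 at 0.13 and Gadd45gip1 at 0.06. Adjusted p-values of these genes lay between 0.54 and 0.82 in limma.

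**Figure D3:**
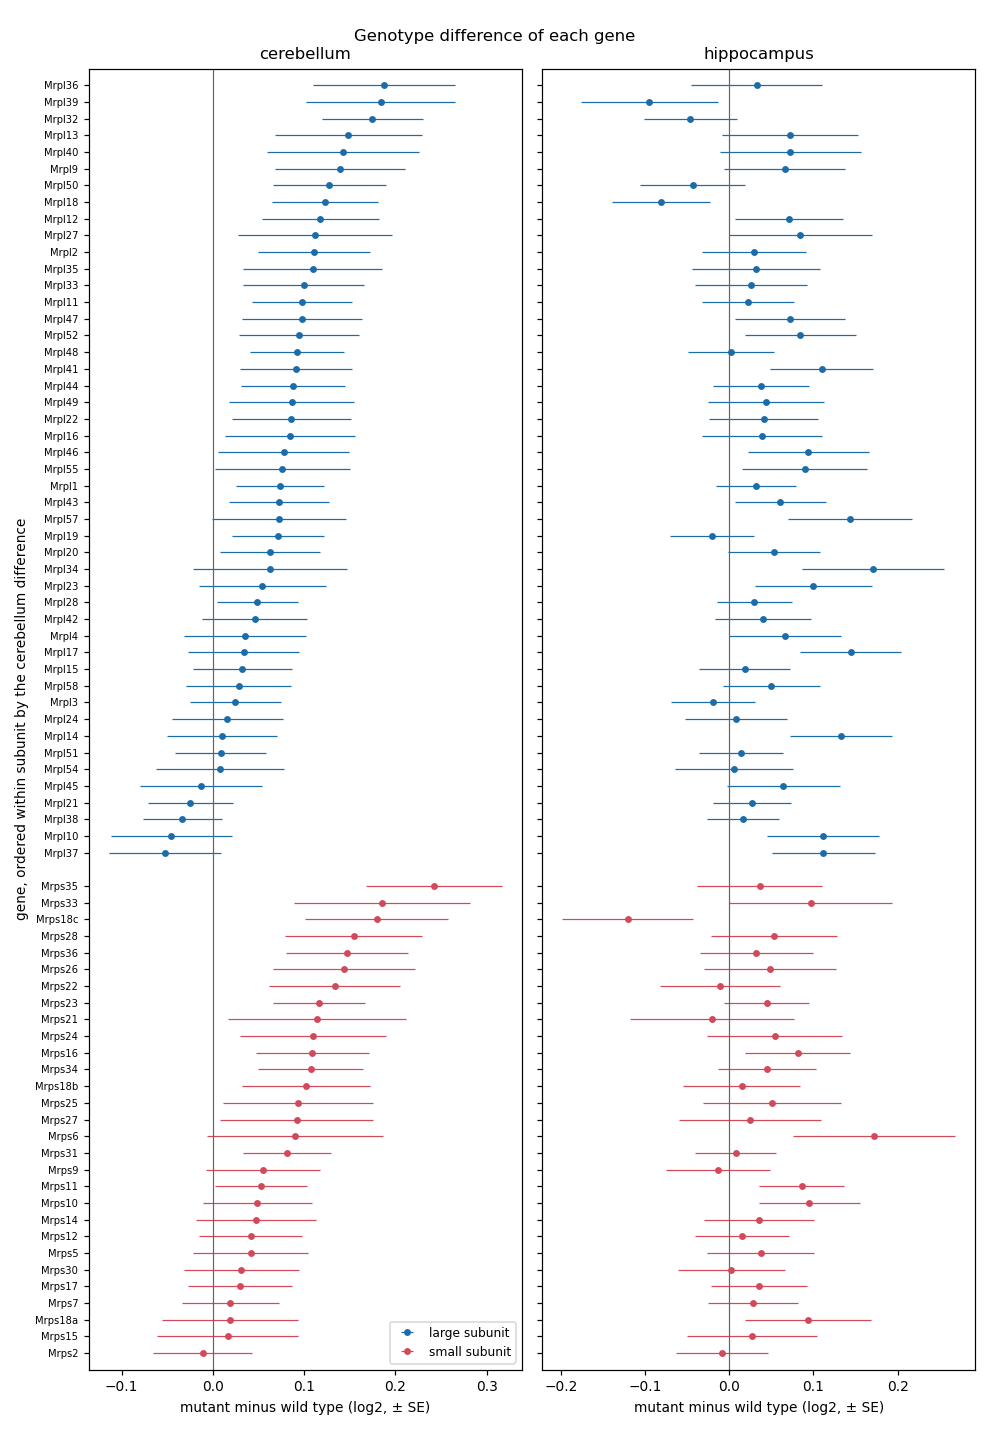
Difference mutant minus wild type (x axis, log2, points with the standard error of the fit) for each of the 76 genes (y axis) in the cerebellum and the hippocampus, with large and small subunits in separate blocks. Right of 0 lie 70 of the 76 points for the cerebellum and 65 for the hippocampus, and the cerebellum points reach from -0.05 to 0.24.

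The difference between regions was tested directly, as the hippocampus effect minus the cerebellum effect. It was below 0 for 52 of 76 members and above 0 for 24, against 54.9% of all genes above 0, with a median of -0.03. None passed, where 0% of all genes did. Mrpl32 differed by -0.22 (SE 0.08), Mrps18c by -0.30 (SE 0.11), Mrpl39 by -0.28 (SE 0.12) and Mrpl18 by -0.20 (SE 0.08), each with a limma adjusted p of 0.87. These 4 were the members under an unadjusted p of 0.05 (2.28% of all genes lower), and 0 were higher (3.07%). The widest values above 0 were Mrpl37 and Mrpl10 at 0.16 each. Without the cerebellum arrays with raised poly-A controls the median turned to 0.02, and to 0.04 without wild-type replicate 2 as well. Without single arrays it stayed below 0. It was -0.05 without mutant 1, mutant 3 or wild-type replicate 1 of the cerebellum or mutant 4 of the hippocampus. It was -0.01 without mutant 2 or wild-type replicate 2 of the cerebellum or mutant 1 of the hippocampus, and -0.02 without mutant 4 of the cerebellum.

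Averaged over both regions, on 8 values that each joined the arrays of a genotype and replicate number, the members lay more evenly above 0. The difference was above 0 for 74 of 76, against 58.7% of all genes, with a median of 0.06 and a range of -0.01 to 0.14. Only Mrpl38 and Mrps2 were below, at -0.01 each. None passed and 0% of all genes did. At an unadjusted p under 0.05 there were 7 higher members, against 5.6% of all genes, and 0 lower, against 2.91%. They were Mrps33 at 0.14, Mrps35 at 0.14, Mrpl34 at 0.12, Mrpl13 at 0.11 and Mrps26, Mrpl41 and Mrpl9 at 0.10 each. Mrps33 had the smallest p (SE 0.05, limma adjusted p = 0.56) and was 0.06 without the cerebellum arrays with raised poly-A controls. That fit dropped mutants 2 and 4 in both regions, and its median over the members was 0.03 with 57 of 76 above 0.

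Mrpl43 and Twnk, which start on either side of the same 115 bases, had differences of similar size that came in part from different arrays. Mrpl43 stood at 0.05, -0.10, -0.00 and -0.11 on wild types and -0.01, 0.10, 0.00 and 0.05 on mutants of the cerebellum, a difference of 0.07 (SE 0.05, limma adjusted p = 0.90) beside 0.06 for Twnk. In the hippocampus it was at 0.00, -0.02, -0.00 and -0.01 on wild types and 0.03, -0.05, 0.06 and 0.18 on mutants, a difference of 0.06 (SE 0.05, limma adjusted p = 0.79) beside 0.06 for Twnk. The groups overlapped in both regions. In the cerebellum Twnk was highest on mutant replicate 3, at 0.11, where Mrpl43 stood at 0.00. In the hippocampus Mrpl43 was highest on mutant replicate 4, at 0.18, where Twnk stood at 0.02. The median difference over all members was 0.08 in the cerebellum and 0.04 in the hippocampus. The pair Mrpl46 and Mrps11 had 0.08 and 0.05 in the cerebellum and 0.09 and 0.09 in the hippocampus. Over all 23 members with such a neighbour, 21 were above 0 in the cerebellum with a median of 0.09, but 12 of their 23 neighbours were, with a median of 0.01. Mrpl46 and Mrps11 count on both sides, as each is the other's neighbour. Psma2 lay at 0.13 beside Mrpl32 at 0.17, whereas Sars2 lay at -0.10 beside Mrps12 at 0.04. In the hippocampus 19 of the 23 members and 15 of the neighbours were above 0, both with a median of 0.04. Members with the ETS motif had medians of 0.09 in the cerebellum and 0.04 in the hippocampus, and those without it had 0.08 and 0.04. For NRF1 the medians were 0.10 and 0.03 with the motif and 0.08 and 0.04 without. For YY1 they were 0.07 and 0.05 with the motif and 0.08 and 0.04 without.

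The 13 members known from human disease had 12 above 0 in the cerebellum with a median of 0.09 and 10 above 0 in the hippocampus with a median of 0.04. In the cerebellum the widest were Mrps28 at 0.15 and Mrps22 at 0.13, followed by Mrpl12 and Mrps23 at 0.12 and Mrps16 and Mrps34 at 0.11. Mrpl12, whose human protein also binds the mitochondrial RNA polymerase, stood at -0.00, -0.14, 0.05 and -0.07 in wild types and -0.05, 0.17, 0.00 and 0.19 in mutants, with overlap (limma adjusted p = 0.88). It was at -0.02 without mutants 2 and 4 and wild-type replicate 2. Mrps25 and Mrpl44 were at 0.09 each, Mrps14 at 0.05, and Mrpl3, Mrpl24 and Mrps7 at 0.02 each. Without mutants 2 and 4, Mrps14 was at -0.03, Mrpl3 and Mrpl24 at -0.01 each, Mrps7 at -0.0073 and Mrps25 at -0.0016. In the hippocampus the 13 lay between -0.02 and 0.08. Mrps5, in which changes make mitochondrial translation error-prone in mice, was at 0.04 in both regions (SE 0.06). Mrps30 and Mrps18a, which belong to the large subunit in spite of their names, were at 0.03 and 0.02 in the cerebellum and 0.00 and 0.09 in the hippocampus.

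Age was set against expression because each group held 2 animals of 24 months or more and 2 of 23 or less. The older were replicates 1 and 2 throughout, so age and replicate number cannot be told apart. In the cerebellum the difference, older minus younger, had a median of 0.00, with 40 of 76 members above 0 against 52.6% of all genes, and 0 passed, as did 0% of all genes. Without single arrays that median lay on either side of 0, at -0.02 without mutant 2 or wild-type replicate 1, -0.01 without mutant 3 and up to 0.04 without wild-type replicate 2. At an unadjusted p under 0.05 there was 1 higher member, against 2.39% of all genes, and 0 lower, against 1.82%. This was Mrps22, at 0.13 and -0.09 (wild type) and 0.05 and 0.18 (mutant) in older animals and at -0.23 and -0.12 (wild type) and -0.05 and 0.05 (mutant) in younger ones. The ages overlapped, and the difference was 0.16 (SE 0.06, limma adjusted p = 1.00). Mrps6 lay at 0.16 and Mrpl2 at 0.09, and on the other side Mrps24 lay at -0.12 and Mrpl4 at -0.11. In the hippocampus 66 of 76 members lay lower in older animals, against 54.7% of all genes, with a median of -0.06 against -0.01. None passed, where 0% of all genes did, and 5 members were lower at an unadjusted p under 0.05, against 3.16% of all genes, and 0 higher, against 3.39%.

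Mrps12 had the smallest p of these 5. In the hippocampus the older animals stood at -0.10 and -0.07 (wild type) and -0.04 and -0.16 (mutant), and the younger at 0.04 and 0.04 (wild type) and 0.04 and 0.12 (mutant). All 4 older animals lay below all 4 younger ones, and the difference was -0.15 (SE 0.05, limma adjusted p = 0.58). Mrpl24 behaved alike, with -0.05, -0.04, -0.06 and -0.04 in older and 0.13, 0.04, 0.09 and 0.13 in younger animals, a difference of -0.14. Mrpl36 was at -0.18, Mrps18a at -0.17 and Mrpl49 at -0.15, with limma adjusted p from 0.70 to 0.71 for these 4. The share of all genes that separate by age as Mrps12 and Mrpl24 did was not counted, and both were named for a small p. The widest values above 0 were Mrps30 and Mrpl47 at 0.06. The arrays with raised cerebellar neuron genes are both from older animals, and without them the median was -0.04 with 14 of 76 above 0. Without mutant replicate 4 as well it was -0.03 with 20 above 0. The Nduf genes had 38 of 44 below 0 with a median of -0.05, and the Rpl and Rps genes 37 of 54 with a median of -0.02. No cell type marker passed the test for age in the hippocampus (limma, smallest adjusted p 0.187). Astrocyte genes had 7 of 7 higher in older animals (median 0.09), microglia genes 8 of 9 (0.12), meningeal and fibroblast genes 7 of 8 (0.28), Purkinje cell genes 6 of 6 (0.60) and cerebellar granule neuron genes 8 of 9 (0.36). Lower were 7 of 7 ependymal genes (-0.33), 7 of 7 oligodendrocyte genes (-0.11), 9 of 10 choroid plexus genes (-0.19) and 4 of 4 blood cell genes (-0.20). Their part in the members' lower values was not tested.

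Genotype within age gave different medians by region. In the cerebellum the median difference of the members was 0.08 among older and 0.07 among younger animals, with 64 of 76 above 0 in each. In the hippocampus it was 0.00 among older animals, with 42 above 0, and 0.06 among younger ones, with 67 above 0. Each of these rests on 2 animals per genotype, not matched in months, and the gap between the ages was not tested. With all ages fitted, 53.6% of all genes were above 0 in the cerebellum and 58.9% in the hippocampus. The shares of all genes within an age are not given here.

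How tightly the members moved together was measured by the correlation of their deviations from the group means over the 8 arrays of a region. The mean over all pairs of members was 0.42 in the cerebellum and 0.27 in the hippocampus, against 0.01 over all genes in each region. It was 0.40 and 0.21 for the Nduf genes, 0.19 and 0.08 for the Rpl and Rps genes, and 0.05 in both regions for the mitochondrial tRNA synthetases. All of these share the same 8 arrays, so the values describe these libraries. Within the cerebellum it was 0.41 among large-subunit and 0.43 among small-subunit genes. Each member was also set against the mean of the others. The correlation was above 0 for 73 members in the cerebellum, with a median of 0.70, and for 70 in the hippocampus, with a median of 0.56. The exceptions in the cerebellum were Mrps5 at -0.33, Mrpl1 at -0.22 and Mrpl4 at -0.04. In the hippocampus Mrpl2 was at -0.38, Mrpl21 at -0.28, Mrpl38 at -0.22, Mrps30 at -0.20, Mrps5 at -0.14 and Mrps9 at -0.05. Mrpl1 and Mrps9 lie outside the rule for named genes and are named after their values were seen.

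Single probe sets showed the same balance with more scatter. In the cerebellum 128 of the 156 probe sets of members (82.1%) were above 0, against 50.2% of all 44904, and in the hippocampus 118 (75.6%), against 55.3%. Several probe sets were present for 42 members and 1 for the other 34. Of the 42, 19 had probe sets on both sides of 0 in the cerebellum and 21 in the hippocampus. The widest spreads were in the cerebellum. The 3 probe sets of Mrps15 gave -0.20, 0.11 and 0.14, those of Mrpl35 gave -0.11, 0.22 and 0.22, and those of Mrpl51 gave -0.13, -0.05 and 0.20. Their gene values of 0.02, 0.11 and 0.01 are means over probes that disagree. Mrpl39 had probe sets of 0.20 and 0.17 in the cerebellum and -0.11 and -0.08 in the hippocampus. Mrps35, Mrpl32, Mrpl36 and Mrps18c each rest on 1 probe set.

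**Figure D4:**
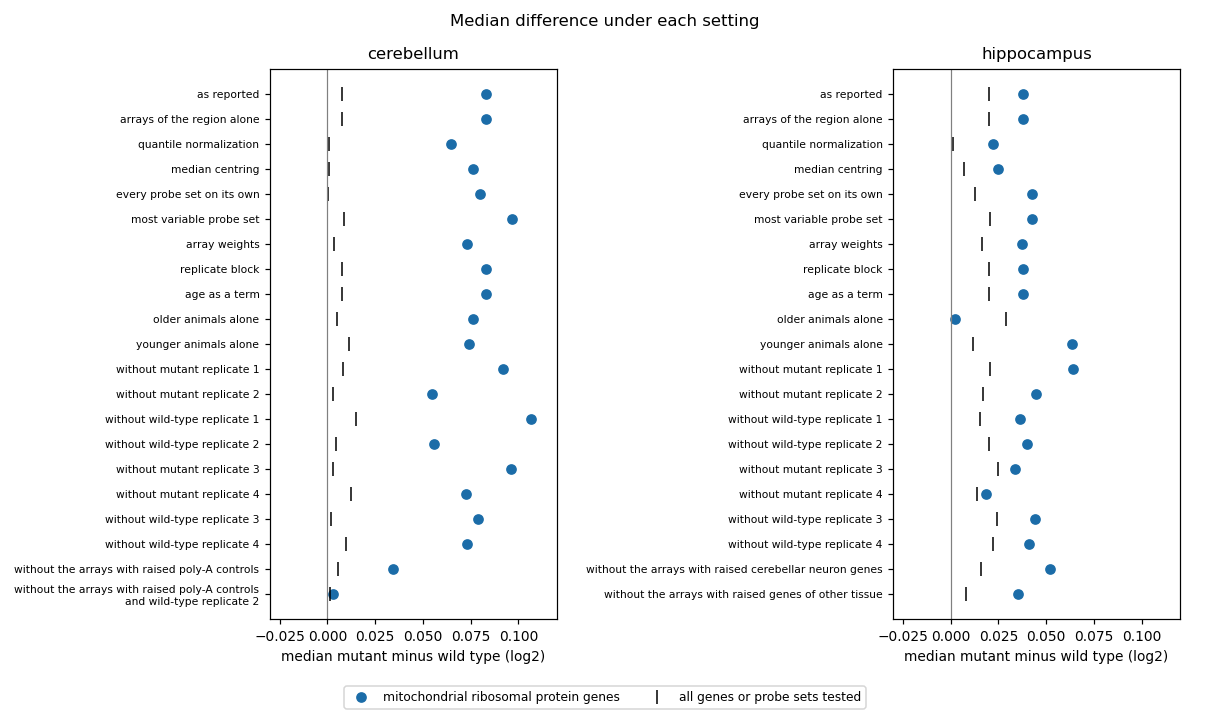
Median difference mutant minus wild type (x axis, log2) of the mitochondrial ribosomal protein genes (points) and of all genes or probe sets tested (bars) under each setting (y axis) in the cerebellum and the hippocampus. In the cerebellum the points fall from 0.08 to 0.03 and 0.00 when the arrays with raised poly-A controls, and then wild-type replicate 2, are left out, and in the hippocampus they run from 0.00 among older animals to 0.06.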

How the data were processed

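Per the labels' protocols, Trizol was used for extraction and 5 ug of RNA gave the biotin-labelled cRNA put on Affymetrix arrays. The submitters' processing notes list GCOS 4.0. How the values were normalized and centred is not given in the sources used here. The values the authors deposited are on a log scale taken as log2, although the base is not stated, and the median over the 8 arrays of a region was within 1e-05 of 0 for 100% of probe sets. A natural log would multiply every difference by 1.44. Precision is limited by the number of arrays, 4 per group. The free text of the hippocampus samples names cerebellum, while title, source and tissue say hippocampus, which was followed.

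Of 45101 probe sets, 64 controls and 133 with an empty value were left out. Genes are means over the probe sets with 1 symbol in the platform annotation. All 76 members matched RefSeq by gene ID. The 4 group means were fitted over 16 arrays with limma 3.58.1 (R 4.3.3), which left 12 residual degrees of freedom. The age fit added older against younger in each region and left 10. Tests were two-sided and adjusted over 18168 genes with Benjamini-Hochberg at a threshold of 0.05. They were tested on simulated data in which genes varied independently, unlike the members here. A variance trend and a filter on dim probe sets need levels and were not used. Alternatives were other normalizations, gene summaries, terms for replicate or age, array weights and fits without arrays. Replicate numbers were not used as pairs in the test. Same-numbered arrays correlated weakly, which does not show whether they share an animal. The correlations ran from -0.192 to 0.231 between genotypes of a region and from -0.175 to 0.167 between regions of a genotype. Whether both regions share animals is not stated in the labels, and the average joins arrays by genotype and replicate number. The test of the difference between regions treated the 16 arrays as independent. No arrays held identical values. The table had 0 columns of no sample.

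The members and lists were chosen with earlier results of these data known. Named genes were Twnk, the 5 members of smallest p per direction and comparison, members whose groups did not overlap, the 3 with the widest spread of probe sets, Mrps5, disease genes, misnamed members and 2 genes per list and region. Mrpl43, Mrpl46, Mrps11 and their neighbours were named for position, and Mrpl1, Mrpl9, Mrpl45 and Mrps9 to complete short counts, after values were seen.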

Additional observations from a re-analysis of the deposited data

Results flagged for a closer look

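In 11 of 200 groups of 4 values (5.5%), taken from the 47 named members and from the means over all members and each subunit, 1 array stood far from the other 3. Chance gives such a value in about 1 in 20 groups. In the cerebellum these were Mrpl41 on mutant replicate 3 at -0.041, below 0.10 to 0.12 on the other mutants, and Mrpl57 on wild-type replicate 2 at -0.22, below -0.01 to 0.02. Mrps25 and Mrps30 stood high on wild-type replicate 3, at 0.12 above -0.05 to -0.02 and at 0.20 above -0.08 to -0.05.

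In the hippocampus, mutant replicate 1 was low for Mrpl35 at -0.18, mutant replicate 3 for Mrpl38 at -0.021 and wild-type replicate 3 for Mrpl2 at -0.10. Mutant replicate 4 was high for Mrps28 at 0.16 and wild-type replicate 4 for Mrpl37 at 0.034. Wild-type replicate 1, the array with the highest cerebellar neuron genes, was low for Mrpl49 at -0.14 and Mrps25 at -0.30.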

How the results depend on the processing

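Over 123 alternatives of the 6 comparisons, 0 members were called in each. The median of the members kept its sign in all 20 alternatives for the cerebellum (0.00 to 0.11), the hippocampus (0.00 to 0.06) and the average (0.01 to 0.09), and in all 17 for age in the hippocampus (-0.07 to -0.03). It kept it in 27 of 29 for the difference between regions and in 13 of 17 for age in the cerebellum (-0.02 to 0.05). These signs are set against 0 and not against all genes. The reported genotype medians of all genes were 0.01 in the cerebellum and 0.02 in the hippocampus. The lowest alternatives of the members, 0.0030 and 0.0021, lay below those values. Fits of a region alone, with a replicate block or with a term for older against younger could not change a median. The reason is that the groups are balanced in replicate number and in the split into older and younger. The counts therefore include alternatives whose sign was fixed by the design. Age in months is not balanced between the genotypes, and no genotype fit used it, so its part in the genotype differences was not tested. Alternatives without certain arrays were chosen after seeing the data. The cerebellum median was 0.0030 without mutants 2 and 4 and wild-type replicate 2, and the difference between regions was 0.024 without mutants 2 and 4 and 0.044 without wild-type replicate 2 too. In those fits 7 and 11 of the 31 members named for the cerebellum had the opposite sign, farthest Mrps15 at -0.098 and -0.17. Mrps25 was at -0.0016 and -0.019, and in the second fit Mrpl12 was at -0.018 and Mrps16 at -0.0015. In the hippocampus the sign turned for 5 of 34 named members without the arrays with raised cerebellar neuron genes and for 10 without those with other tissue genes. Mrpl39 in the hippocampus was at 0.0075 among younger animals. The cause was not tested.

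Leaving out 1 array at a time gave medians from 0.05 to 0.11 in the cerebellum, 0.02 to 0.06 in the hippocampus, -0.05 to -0.01 for the difference, 0.04 to 0.08 for the average, and -0.02 to 0.04 and -0.07 to -0.05 for age in the cerebellum and hippocampus. The count of all genes called, 0 as reported in each comparison (limma; 979, 1459, 972, 1546, 764 and 1190 genes at an unadjusted p under 0.05), ran from 0 to 7 in the hippocampus, 0 to 1 for the difference and 0 to 7 for age in the hippocampus. In the hippocampus it was 1 with quantile normalization, 4 among younger animals and 1 without the arrays with other tissue genes, where it was 1 for the difference too. With every probe set tested alone, 1 was called for the average. For age in the cerebellum it was 4 with that region fitted alone and 6 with quantile normalization. For age in the hippocampus it was 27 with quantile normalization, 3 with median centring, 9 with array weights, 20 with age in months and 2 without the arrays with raised cerebellar neuron genes.

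With the replicate number as a block 0 genes were called. The medians stayed at 0.08 in the cerebellum, 0.04 in the hippocampus, -0.03 for the difference and 0.06 for the average. The design fixes this, because each group held each replicate number once, so these medians cannot show how the results depend on replicate number. The planned filter on dim probe sets was not run, because no level is left.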
